A study of Mus musculus with 2 samples.

Results

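The glial cell line-derived neurotrophic factor (GDNF) family was examined in cells sorted from the spleens of mice bearing hepatocellular carcinoma, the main cancer of the liver. The family comprised 9 genes, namely the ligands Artn (artemin), Gdnf, Nrtn (neurturin) and Pspn (persephin), the co-receptors Gfra1, Gfra2, Gfra3 and Gfra4, and the shared receptor Ret. Its members were all probe sets whose only gene symbol in the array's annotation was 1 of these 9. This gave 16 of 34945 probe sets with 1 symbol, and 6 of the 9 genes were read by 1 probe set each. No probe set that named several genes included a member. All 9 genes matched the RefSeq gene table by Entrez identifier.

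RNA of 2 sorted samples was hybridised to 1 Affymetrix 3' expression array each. The first held CD45-negative spleen cells, which the series' design text gives as Ter119-positive, a marker of red cells and their precursors. The second held CD45-positive cells, that is white cells, of the same tumour-bearing animals, and served as the control. All animals were of C57BL/6 background and carried the tumour, and no tumour-free group was analysed here. How the tumour was induced, the animals' age, how many were pooled, and whether Ter119 was part of the CD45-positive gate is information that the sources used here do not give. The brightest probe set (here and below, the one whose log2 values averaged highest over both arrays) of each of 7 red cell markers was higher in the CD45-negative array, by a median of 6.12 on the log2 scale. Of 7 white cell markers, 6 were at least 4-fold lower and the seventh, Itgam, had 70.9 in the CD45-negative array against 396.1 in the CD45-positive array. Ptprc, which encodes CD45 itself, had 422.7 in CD45-negative cells against 32147 in CD45-positive cells, which checks the sort and is no finding. The arrays' medians over the 45037 probe sets were 85.1 (CD45-negative) and 87.8 (CD45-positive).

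GDNF family ligands are secreted proteins of the transforming growth factor beta superfamily. Each binds by preference 1 co-receptor, which is held on the cell surface by a lipid anchor, and the pair then activates the receptor tyrosine kinase RET. The preferred partners are GFRα1 for GDNF, GFRα2 for neurturin, GFRα3 for artemin and GFRα4 for persephin. The family is known for its part in the survival and growth of enteric, sympathetic, sensory and motor neurons, and RET also acts in kidney development. Ter119-positive, CD45-negative spleen cells of tumour-bearing mice have been described as a source of artemin in published work, so the Artn value here is not independent support for that description.

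Promoter sequence is shown for the 2 ligand genes that had signal above background in CD45-negative cells. RefSeq promoter windows of build GRCm38.p6, from 250 bases before to 50 bases after an annotated start, were at hand for 6 of the 9 members. They were not at hand for Gfra2, Gfra3 and Ret. The 250 bases before the start of Artn lie on the minus strand at chr4:117929764-117930013, and those of Nrtn on the minus strand at chr17:56757549-56757798. That start of Artn lies inside the gene's annotated span, which has several transcripts. Both sequences run 5' to 3', and capitals mark matches, on either strand, to 3 motifs. The letters searched were GATAA for the core site of GATA factors. For Krüppel-like factors they were CACCC. For an E-box they were CAGCTG, and no matches overlapped.
Artn: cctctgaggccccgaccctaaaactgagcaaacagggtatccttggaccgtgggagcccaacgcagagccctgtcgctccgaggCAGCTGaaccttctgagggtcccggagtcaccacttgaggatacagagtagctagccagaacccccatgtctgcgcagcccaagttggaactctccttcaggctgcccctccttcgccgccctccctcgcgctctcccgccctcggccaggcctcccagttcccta
Nrtn: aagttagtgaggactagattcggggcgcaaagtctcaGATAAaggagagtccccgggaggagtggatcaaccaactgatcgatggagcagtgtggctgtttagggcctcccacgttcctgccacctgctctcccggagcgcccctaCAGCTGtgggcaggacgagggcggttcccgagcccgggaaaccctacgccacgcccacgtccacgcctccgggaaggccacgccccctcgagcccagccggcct
In these 250 bases Artn held 1 match, to CAGCTG, and its whole window of 300 bases held 0 matches to the GATA motif and 0 to the Krüppel-like motif. Of all 32851 windows of that length, 16.3% held the E-box letters, 25.4% those of the GATA motif and 57.5% those of the Krüppel-like motif. Nrtn held 1 E-box match and 1 GATA match. Pspn held 3 matches to CACCC and none to the other motifs. The GC content of the Artn window was 61.3%, against a median of 52.7% over all windows. A match is a string of letters and does not show that a factor binds there, and no motif was set against the intensities.

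To tell signal from background, a detection level of 101.1 was set, at the 95th percentile of 80 probe sets of olfactory and vomeronasal receptors, genes that spleen cells are not known to use. Probe sets brighter than this are called measured. Dimmer values were raised to the level before any difference was formed. A probe set measured in only 1 of the 2 arrays therefore yields a minimum difference, which is marked "at least". Each difference subtracts the log2 value of the CD45-positive array from that of the CD45-negative array, and those of 4-fold (2 on that scale) or more were counted. Neither group had a second array, so no difference could be tested or set against replicate spread. Different probe sets of a gene had a pooled SD of 0.83 in this difference over 5474 genes, which is not replicate error. RNA was measured in bulk, so a larger share of expressing cells and more RNA per cell cannot be told apart.

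Artn stood out from the family in these arrays and was the only member counted as differing by 4-fold or more. In the CD45-negative array 4 of the 9 genes had a probe set above the level (Artn, Nrtn, Gfra2 and Ret), where 55.3% of all genes did. In the CD45-positive array 1 of 9 did (Nrtn), where 56.6% of all genes did. Counted by probe set, 4 of 16 were above the level in the CD45-negative array (49.4% of all probe sets were) and 1 of 16 in the CD45-positive array (52.9%). Of the 4 member probe sets measured in at least 1 array, 1 was at least 4-fold higher, against 7.71% of 21447 measured probe sets. None of the 4 was at least 4-fold lower, against 14.5% of measured probe sets. The other 12 member probe sets were at or under the level in both arrays. The contrast of 4 genes against 1 depended on using 1 shared level. Of the 80 receptor probe sets, 8 exceeded that level for CD45-negative cells, but 0 did for CD45-positive cells. With each array given its own 95th percentile of the receptors (127.3 for CD45-negative, 73.5 for CD45-positive), the counts were 3 (CD45-negative) and 4 (CD45-positive) of the 9 genes.

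**Figure D1:**
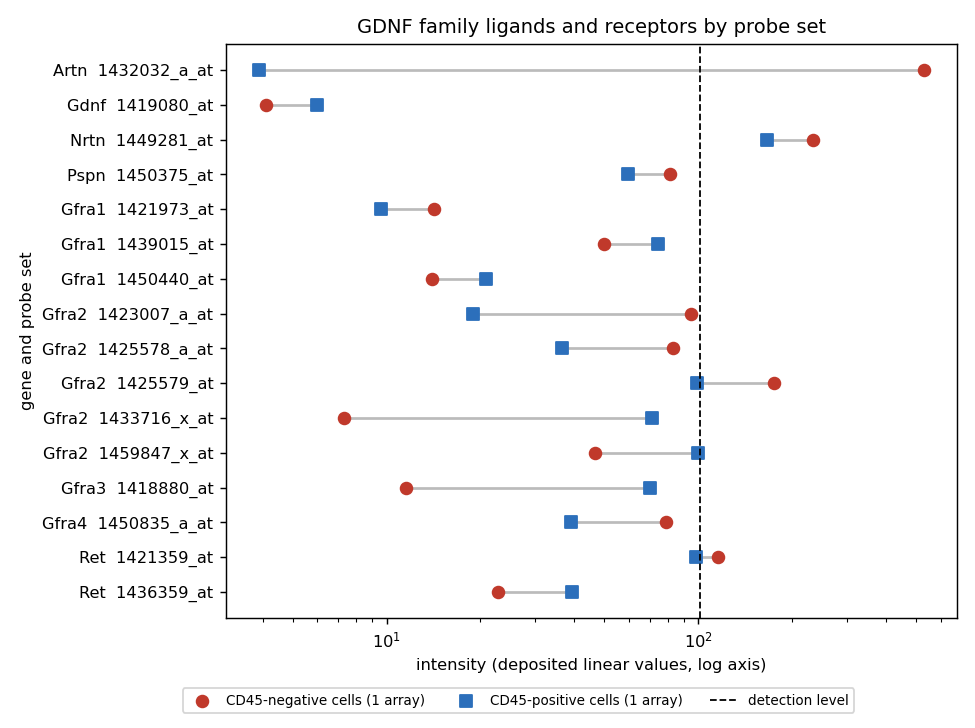
Intensity (log axis, deposited linear values) of each of the 16 GDNF family probe sets in the CD45-negative array (red circles) and the CD45-positive array (blue squares), with the detection level of 101.1 as a dashed line. Artn is the only probe set with a wide gap whose CD45-negative value lies well above the level, at 530.5 against 3.9.

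Among the ligands, Artn, read by 1 probe set, had an intensity of 530.5 in CD45-negative cells, against 3.9 in CD45-positive cells. Its difference was therefore at least 2.39 on the log2 scale, or at least 5.25-fold higher in the CD45-negative cells. The CD45-negative value exceeded that of all 80 olfactory and vomeronasal receptor probe sets, of which the highest reached 180.4 in that array. In the CD45-positive array, 15 of those 80 receptor probe sets had values at or under the 3.9 of Artn, so the low value there lay inside the range of genes taken as silent. Across the array, 2951 probe sets were above the level in the CD45-negative array only, with a median CD45-negative intensity of 146.3, and 313 of them (10.6%) were at least 4-fold higher. Artn belonged to those 313. With 1 probe set, the reading of Artn could not be set against another probe set of the gene. Under a stricter level of 160.4, the 99th percentile of the receptors, the bound of Artn fell short of 4-fold, at 1.73.

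Nrtn, which encodes neurturin, was the only ligand gene measured in both arrays, with 234 in CD45-negative cells and 166.1 in CD45-positive cells. That difference of 0.49 on the log2 scale (1.41-fold) is smaller than the 0.83 SD between probe sets of a gene. After quantile normalization it was 1.10. Pspn, which encodes persephin, had 81.3 in CD45-negative cells and 59.4 in CD45-positive cells, both under the level. Gdnf, the ligand that names the family, had 4.1 in CD45-negative cells and 6.0 in CD45-positive cells. No direction is drawn for Pspn or Gdnf, since neither value of either gene rose above the level.

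Of the co-receptors, Gfra3, whose product is the preferred partner of artemin, was not measured in either array. Its 1 probe set had 11.5 in CD45-negative cells and 70.2 in CD45-positive cells. Gfra1 was read by 3 probe sets, from 14 to 50 in CD45-negative cells and from 9.6 to 74.3 in CD45-positive cells, all under the level. Of these 3, 1 was brighter and 2 were dimmer in the CD45-negative array. Gfra4 had 78.6 in CD45-negative cells and 39.0 in CD45-positive cells, again under the level.

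Gfra2, whose product is the preferred partner of neurturin, was read by 5 probe sets that did not run the same way. The brightest had 175.5 in CD45-negative cells and 99 in CD45-positive cells, a difference of at least 0.80 on the log2 scale. Its CD45-negative value lay under the 180.4 of the brightest olfactory or vomeronasal receptor probe set. The other 4 lay under the level in both arrays, and 2 of them were brighter in the CD45-negative array, with 94.6 against 18.9 and 82.8 against 36.6. The remaining 2, whose identifiers mark probes that may bind other transcripts, were dimmer there, with 7.3 against 70.8 and 46.6 against 99.7. Without a level, the differences of the 5 ran from -3.28 to 2.32, so no direction holds for Gfra2.

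Ret, the receptor through which all 4 ligands signal, was close to the level. Its brighter probe set had 115.7 in CD45-negative cells and 98.1 in CD45-positive cells, a difference of at least 0.19 on the log2 scale. The other had 22.8 in CD45-negative cells and 39.2 in CD45-positive cells, both under the level. The probe sets thus ran in opposite directions, by 0.24 and -0.78 with no level applied. With a level set for each array (127.3 for the CD45-negative array, 73.5 for the CD45-positive array), Ret was measured in the CD45-positive array only. Of the 3 genes other than Artn counted as above the level in the CD45-negative array, only Nrtn had a value there above 180.4, the highest receptor value.

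**Figure D2:**
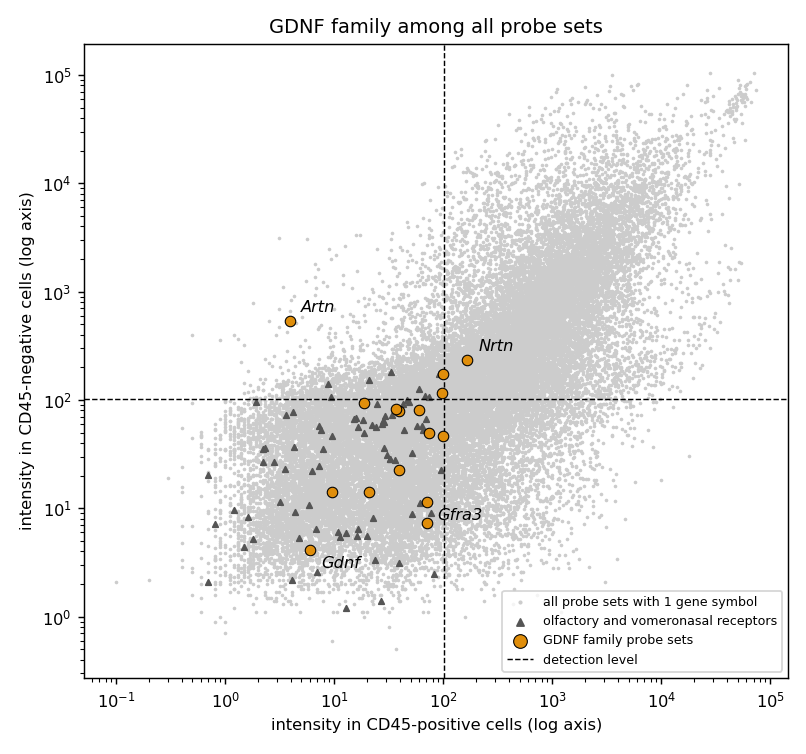
Intensity in the CD45-negative array (vertical log axis) against that in the CD45-positive array (horizontal log axis) for all 34945 probe sets with 1 gene symbol (grey), 80 olfactory and vomeronasal receptor probe sets (triangles) and 16 GDNF family probe sets (orange), with dashed lines at the detection level. Artn lies above the receptor probe sets at the left, while 12 family probe sets lie among them in the lower left quadrant.

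By the rule fixed for likeness, the probe sets nearest to Artn over the 2 arrays were those of 5830448L01Rik, Aoc3, Cavin2, Cenpf and Ttc39a. Their distances from Artn ran from 0.21 to 0.41 on the log2 scale. Their values ran from 424.5 to 667.8 in CD45-negative cells and from 3.1 to 5.1 in CD45-positive cells. Cavin2 encodes a protein of caveolae and Cenpf a protein of the kinetochore in dividing cells. The distances used the values with no level applied, so CD45-positive values under the level helped to pick these genes. Values this far under the level have no order. Other probe sets with a similar CD45-negative intensity and any CD45-positive value under the level could be as alike. With 2 arrays the likeness has little weight.

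Among genes for proteins that bind the ligands or resemble their receptors, no difference was counted as 4-fold. Some of these differences are lower bounds in size, so a larger one cannot be told. Of the 3 genes with a probe set, 1 was measured by its brightest probe set and 2 by any probe set. Sdc3 encodes syndecan-3, a heparan sulphate proteoglycan that binds GDNF family ligands, with 300.9 in CD45-negative cells and 364.4 in CD45-positive cells. Its probe sets ran from -1.13 to 0.69, so no direction holds. Ncam1, an adhesion molecule that serves as a RET-independent receptor of GDNF, had 75.7 in CD45-negative cells and 62.6 in CD45-positive cells by its brightest probe set, and all 7 of its probe sets were under the level. Gas1, which encodes a protein related to the GFRα co-receptors, had 99.9 in CD45-negative cells and 54.8 in CD45-positive cells by its brightest probe set, both under the level. Another Gas1 probe set, brighter on a linear scale, was above the level in the CD45-negative array, with 223.2 in CD45-negative cells and 22.0 in CD45-positive cells, which is at least 1.14 on the log2 scale. Gdf15 and Gfral, a ligand and its receptor of the wider family, were not analysed here.

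Of the genes that process or sort such ligands, 4 of 6 were measured, with 0 at least 4-fold higher (8.31% of 11793 measured genes) and 1 lower (16.8%). Their median difference was -0.07, against -0.26 over all measured genes. Furin, which encodes a protease that cleaves many growth factor precursors, had 677.8 in CD45-negative cells and 507.8 in CD45-positive cells, a difference of 0.42. The gene that passed 4-fold was Sorl1, whose product sorts GDNF and its co-receptor in cells. Sorl1 had 172.7 in CD45-negative cells and 8008 in CD45-positive cells, which is 46.4-fold lower in the CD45-negative cells. All 3 Sorl1 probe sets ran the same way, from -5.73 to -3.05.

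The adaptor and docking proteins that bind activated RET were mixed. Of 15 with a probe set, 12 were measured. By 4-fold or more 1 was higher (8.31% of all measured genes were) and 1 was lower (16.8%), and the median difference was 0.09. Gab1, a docking protein for phosphoinositide 3-kinase, had 425.7 in CD45-negative cells and 71.8 in CD45-positive cells, a difference of at least 2.07. Its other 2 probe sets were also higher, by at least 1.42 and at least 0.84. It did not reach 4-fold with the 99th percentile as the level (1.41), with a pseudocount of 32 (1.78) or with the mean of its probe sets (1.44). Grb2, the adaptor that links receptors to Ras, had 508.8 in CD45-negative cells and 3726 in CD45-positive cells, 7.32-fold lower. Its second probe set gave -1.12, and the mean of both fell just short of 4-fold. Dok2, a docking protein of blood cells, had 173.2 in CD45-negative cells and 509.8 in CD45-positive cells, a difference of -1.56. Dok1, of the same family, had 3229 in CD45-negative cells and 1060 in CD45-positive cells, a difference of 1.61. Shc1, an adaptor common to many receptors, had 1082.5 in CD45-negative cells and 884.4 in CD45-positive cells, a difference of 0.29. These proteins serve many receptors besides RET in blood cells.

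Of 20 genes of downstream signalling and its feedback with a probe set, 19 were measured. By the brightest probe set none was counted as 4-fold higher, against 8.31% of all measured genes. By the same rule 3 were lower, close to the array-wide share of 16.8%. The median difference of the 19 was -0.91. Dusp6, a phosphatase that limits ERK and is induced by it, had 87.4 in CD45-negative cells and 1863 in CD45-positive cells, at least 18.4-fold lower. Stat3, a transcription factor activated by cytokine receptors and by RET, had 658.5 in CD45-negative cells and 5129 in CD45-positive cells, 7.79-fold lower, while a further probe set of it gave -0.03. Plcg1, a phospholipase of receptor signalling, had 14.8 in CD45-negative cells and 1249.5 in CD45-positive cells, at least 12.4-fold lower. A dimmer Plcg1 probe set went the other way, with 159.8 in CD45-negative cells and 45.0 in CD45-positive cells, so no direction holds for Plcg1. Pik3r1, the regulatory subunit of phosphoinositide 3-kinase, had 2115 in CD45-negative cells and 995.1 in CD45-positive cells. Its 4 probe sets ran from 1.09 to 2.53, and those at 2.18 and 2.53 were past 4-fold. Cblb was likewise not counted, with -1.48 by its brightest probe set, though another gave -3.03.

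**Figure D3:**
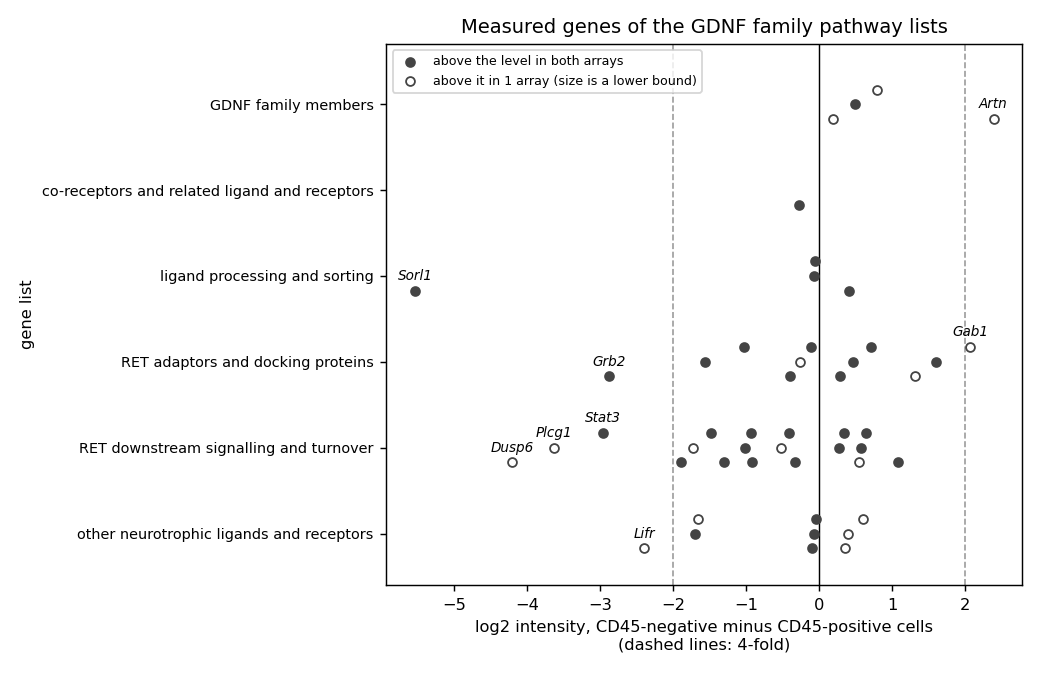
Log2 difference, CD45-negative minus CD45-positive, of the brightest probe set of each measured gene in 6 lists, with filled points for genes above the level in both arrays, open points for genes above it in 1 array (lower bounds in size), and dashed lines at 4-fold. Artn and Gab1 lie past 4-fold to the right, and Sorl1, Grb2, Stat3, Plcg1, Dusp6 and Lifr to the left.

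Other neurotrophic ligands and receptors, taken for comparison, held no gene counted as at least 4-fold higher. Of 17 with a probe set, 9 were measured and 1 was lower, against 16.8% of all measured genes, and the median difference of the 9 was -0.07. The lower gene was Lifr, the receptor subunit for leukaemia inhibitory factor, with 5.5 in CD45-negative cells and 533.2 in CD45-positive cells, at least 5.27-fold lower. It did not reach 4-fold with the 99th percentile as the level (-1.73), after quantile normalization (-1.91) or with the mean of its probe sets (-0.85). Clcf1, a cytokine of the ciliary neurotrophic factor receptor, was not counted, since the probe set that stood for it had 130.6 in CD45-negative cells and 424.2 in CD45-positive cells (-1.70). Its other 2 probe sets were past 4-fold, with 32.2 and 25.3 in CD45-negative cells against 1231.5 and 699.9 in CD45-positive cells. Those are differences of -3.61 and -2.79 or below. Ntrk2, the receptor of brain-derived neurotrophic factor, had 133.3 in CD45-negative cells and 73.6 in CD45-positive cells, a difference of at least 0.40. Of its 8 probe sets, the only other above the level had 141.8 in CD45-negative cells and 52.2 in CD45-positive cells. Both CD45-negative values lay under 180.4, the highest olfactory or vomeronasal receptor value in that array. Manf, a survival factor of the endoplasmic reticulum, had 4421 in CD45-negative cells and 4546 in CD45-positive cells. Whether Artn differs from this list was not tested.

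Markers of cells other than red and white cells that the CD45-negative gate could hold were mostly under the level. Of 13 markers of neurons, nerve and glia with a probe set, 5 were above the level in CD45-negative cells and 3 in CD45-positive cells, and their summed intensity was 2323 in CD45-negative cells and 881.2 in CD45-positive cells. Gfap, an intermediate filament of astrocytes and some other cells, had 1116 in CD45-negative cells and 44.8 in CD45-positive cells, which is at least 11.0-fold higher, and its 2 other probe sets were also higher, by at least 2.85 and at least 1.14. Sox10, a transcription factor of glia and neural crest, had 298.8 in CD45-negative cells and 128.6 in CD45-positive cells, a difference of 1.22, and its 2 other probe sets were under the level in both arrays. Some neuronal genes also exceeded the level in CD45-negative cells by their brightest probe set. Their values stayed under 180.4, the highest olfactory or vomeronasal receptor value in the CD45-negative array. The identifier of the Prph probe set marks probes that may bind other transcripts. Prph and Elavl4, read by 4 and 3 probe sets, had no other probe set above the level. Prph had 174.1 in CD45-negative cells and 30.6 in CD45-positive cells, Tubb3 had 156.5 in CD45-negative cells and 104 in CD45-positive cells, and Elavl4 had 129.1 in CD45-negative cells and 29.6 in CD45-positive cells. Erbb3 went the other way, with 92.1 in CD45-negative cells and 252.4 in CD45-positive cells. The other 7, Phox2a, Th, Dbh, Chrna3, Uchl1, S100b and Foxd3, were under the level in both arrays. Of 8 stromal and endothelial markers, 0 were above the level in CD45-negative cells and 1 in CD45-positive cells (Cdh5, at 126.4), with sums of 298.9 in CD45-negative cells and 328.1 in CD45-positive cells. Of 7 liver and liver tumour markers, 2 were above it in CD45-negative cells (Apoa2 at 120.9 and Epcam at 110.5) and 1 in CD45-positive cells (Afp at 125.5). By these brightest probe sets the sums were 412.4 in CD45-negative cells and 402.5 in CD45-positive cells. Further Afp probe sets had higher CD45-positive values, with 6.9 in CD45-negative cells against 267.1 in CD45-positive cells, and 12.3 against 166. Those are differences of -1.40 and -0.72 or below. The remaining Afp probe sets were under the level in both arrays. The part of nerve or glial cells in the Artn value was not tested.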

How the data were processed

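Intensity of 45037 probe sets was deposited for 1 array per group, on a linear scale. The arrays were 3' expression arrays read with biotin-labelled cRNA, per the labels' protocols. The submitters' processing notes name GCRMA and Partek 6.6, without saying which values each made, so the step that made the deposited intensities is not settled. Detection and saturation calls were not used here.

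Gene names came from GEO's platform annotation. Probe sets with 1 symbol were used (34945), and those with several (932) or unnamed (9160) were not. The deposited intensity values were taken to log2 as they stood, with nothing added and no rescaling. The brightest probe set stood for a gene in list counts. The number of arrays limits the precision. No test was possible, and none was run. The genes named were the members, the listed receptor relatives and Furin, up to 4 genes past 4-fold per list, the genes next to each member in the RefSeq table (GRCm38.p6) and the 5 probe sets nearest to Artn by Euclidean distance. Further genes named were chosen after their values were seen. The members and lists were chosen with earlier results of these data known.

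Alternatives were other detection levels, scalings, a pseudocount of 32, mean probe sets, and leaving out probe sets marked _s_at or _x_at. Python 3.11.15, numpy 2.4.6, pandas 2.3.3 and matplotlib 3.10.9 were used, and the counting was tested on simulated data.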

Additional observations from a re-analysis of the deposited data

How the results depend on the processing

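The bound of Artn was 2.85 with a level for each array, 1.73 with the 99th percentile as the level, 2.56 after quantile normalization and 2.08 with a pseudocount of 32, and its difference with no level was 7.09. After median centring it was 2.39. Artn stayed higher in CD45-negative cells under all of these. With 530.5 against 3.9, none of these settings could have reversed that direction. The bound was short of 4-fold with the 99th percentile. Members above the level in the CD45-negative array numbered 2 with the mean of probe sets, and 3 with a level for each array (Artn, Nrtn and Gfra2). With a level for each array, the CD45-positive array had 4 (Nrtn, Gfra1, Gfra2 and Ret), so the order of the main counts was reversed. Member probe sets at least 4-fold higher numbered 0 with the 99th percentile and 2 with no level (Artn and Gfra2), and 2 were lower with no level (Gfra2 and Gfra3). Of RET adaptors, 0 were higher with the 99th percentile, and 0 higher and 0 lower with the mean of probe sets, so that neither Gab1 nor Grb2 was then called. With no level, 6 downstream genes were lower, and 2 other neurotrophic genes were higher and 3 lower. Of the other neurotrophic genes 0 were lower with the 99th percentile or quantile normalization. The cause of these changes was not tested. The median over all measured genes was 0.01 after quantile normalization, against -0.26 without it, both with the level applied. With no level, the median of the deposited values over all genes was 0.02. Without a level, the count of members above it has no meaning and was not run. No paired analysis was possible because each group had 1 array.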

Other observations

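The genes next to the family members in the RefSeq table were also read. Next to Artn lie Ipo13, an importin gene, with 972.5 in CD45-negative cells and 628.8 in CD45-positive cells, and St3gal3, a sialyltransferase gene, with 295.1 in CD45-negative cells and 387 in CD45-positive cells. Neither differed by 4-fold. Of 18 protein-coding neighbours of the 9 members, 16 had a probe set, and 14 of these were measured. By 4-fold or more, 2 of the 14 were higher in CD45-negative cells and 2 were lower, where 8.31% of all measured genes were higher and 16.8% lower. The higher ones were Cdc25c, a phosphatase of mitotic entry next to Gfra3, with 3906 in CD45-negative cells and 73.5 in CD45-positive cells, and Adam33, next to Gfra4, with 644.2 in CD45-negative cells and 63.2 in CD45-positive cells. The other Adam33 probe set did not exceed the level in either array. The lower ones were Bms1, a ribosome assembly gene next to Ret, with 623 in CD45-negative cells and 5271 in CD45-positive cells, and Dus3l, next to Nrtn, with 631.7 in CD45-negative cells and 2609 in CD45-positive cells. The other probe set of each was also lower but fell short of 4-fold, at -1.97 for Bms1 and -1.06 for Dus3l. Dok2, the docking protein gene of the RET adaptor list, is the protein-coding gene next to Gfra2. Alkbh7, whose annotated span overlaps that of Pspn, had 196.4 in CD45-negative cells and 664.8 in CD45-positive cells, a difference of -1.76.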
